A study of Mus musculus with 12 samples.

Results

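Interstitial cells of Cajal (ICC) genes were followed through a RiboTag pull-down of the mouse small intestine, and 5 of the 12975 genes in the deposited table were chosen for it by name: Kit, Ano1, Etv1, Gpr20 and Adgrd1. They were picked as interstitial cell markers, together with genes enriched beside them in the HA pull-down, so their height in HA over IgG is what chose them and is given below as a description. RiboTag mice carry an Rpl22 allele that gains an HA epitope after Cre recombination, so that an anti-HA antibody pulls down ribosomes, and the RNA bound to them, from the recombined cells. Here Cre was PLPCreERT2, a tamoxifen-inducible driver used to label enteric glia, and all animals of all groups carried this driver with the Rpl22HA allele (strain B6J.129(Cg)-Rpl22tm1.1Psam/SjJ). All animals, controls included, received 2 tamoxifen injections of 100 µl at 15 mg/ml from 10 to 12 weeks of age, and were killed 3 to 4 weeks later. The groups were naive animals (T0) and animals killed 3 h after intestinal manipulation (T3), a surgical handling of the gut that inflames its muscle layer, with 3 animals each. From each animal the muscularis externa with adherent myenteric plexus was homogenised, and 1 part of the lysate went to anti-HA and 1 part to the isotype control antibody IgG1, which gave 12 libraries from 6 animals in 4 groups of 3 (HA T0, HA T3, IgG T0 and IgG T3). No ICC-specific Cre was used, and the labels do not state which cell types recombined.

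ICC are the pacemaker cells of the gut muscle: they generate electrical slow waves and relay nerve signals to smooth muscle. KIT is the receptor tyrosine kinase for stem cell factor that these cells need for development and maintenance, and ANO1 is the calcium-activated chloride channel that carries their pacemaker current. ETV1 is an ETS-family transcription factor stabilised downstream of KIT, GPR20 is an orphan G protein-coupled receptor known from ICC and gastrointestinal stromal tumours, and ADGRD1 (GPR133) is an adhesion G protein-coupled receptor.

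Libraries held 1789710 to 2870591 counts in HA T0, 1221788 to 1495439 in HA T3, 388214 to 1289833 in IgG T0 and 88136 to 248522 in IgG T3. The IgG T3 libraries of animals 1 and 3 were the 2 shallowest, and they stood apart from that of animal 4. The 5 ICC genes together took 0.134% and 0.116% of their counts, against 0.0318% in the IgG T3 library of animal 4 and 0.0453 to 0.0506% in IgG T0. The summed level of 15 glial markers moved with this, at 2542 and 2239 CPM (a gene's count scaled to a library of 1000000 counts) in the libraries of animals 1 and 3, against 905 in that of animal 4; the part of this in the ICC values was not tested. Results that rest on these libraries are given with and without them.

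All 5 genes are placed on mm10 (GRCm38) by the Gencode M21 annotation. Kit (ENSMUSG00000005672.12) lies at chr5:75574916-75656722 on the plus strand, and Adgrd1 (ENSMUSG00000044017.16) at chr5:129096750-129204599, also on the plus strand. Ano1 (ENSMUSG00000031075.18) lies at chr7:144588549-144751974 on the minus strand, Etv1 (ENSMUSG00000004151.17) at chr12:38779380-38870484 on the plus strand, and Gpr20 (ENSMUSG00000045281.5) at chr15:73694604-73707505 on the minus strand. Reads were counted near the 3′ end of each gene, and in this window (1000 bases before the end to 100 after it) no other annotated gene overlapped any of the 5. The RefSeq promoters (GRCm38.p6; 250 bases before to 50 after the transcription start) of 3 of the 5 genes are shown because KIT signalling is known to act through ETV1, whose family binds a GGAAG core. Capitals mark GGAAG on the printed strand or CTTCC, its reverse complement, and each sequence runs 5′ to 3′ along the gene.
Kit promoter, chr5:75574737-75575036, plus strand: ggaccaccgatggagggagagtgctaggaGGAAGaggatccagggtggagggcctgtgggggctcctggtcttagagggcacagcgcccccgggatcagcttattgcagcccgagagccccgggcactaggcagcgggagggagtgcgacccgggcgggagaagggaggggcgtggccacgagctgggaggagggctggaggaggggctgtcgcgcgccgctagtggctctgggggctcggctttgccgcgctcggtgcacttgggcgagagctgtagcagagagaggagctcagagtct
Ano1 promoter, chr7:144738524-144738823, minus strand: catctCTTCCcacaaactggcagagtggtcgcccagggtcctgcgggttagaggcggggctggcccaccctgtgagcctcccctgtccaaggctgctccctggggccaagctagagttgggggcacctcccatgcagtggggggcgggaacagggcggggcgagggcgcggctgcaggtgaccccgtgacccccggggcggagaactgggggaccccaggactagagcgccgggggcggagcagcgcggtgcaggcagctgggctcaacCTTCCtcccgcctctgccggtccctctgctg
Etv1 promoter, chr12:38779832-38780131, plus strand: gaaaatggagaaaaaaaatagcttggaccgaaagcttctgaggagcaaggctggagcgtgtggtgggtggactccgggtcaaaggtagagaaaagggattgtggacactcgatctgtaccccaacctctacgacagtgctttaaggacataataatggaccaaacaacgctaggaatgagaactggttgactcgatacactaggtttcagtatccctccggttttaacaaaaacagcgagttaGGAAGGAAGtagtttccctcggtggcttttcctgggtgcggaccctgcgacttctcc
GGAAG was searched on both strands. It occurred 1 time in the Kit window, 2 times in the Ano1 window, both as CTTCC, and 2 times in the Etv1 window, where the copies overlap by 1 base; a second RefSeq window of Etv1, at chr12:38783461-38783760, held 0. These are matches of letters and not binding sites, and 71.4% of 32851 promoters in the same table held at least 1. The longer ETS motif CCGGAAGT was in 3.89% of promoters and in none of the 5 windows listed for Kit, Ano1 and Etv1. The Kit and Ano1 windows were 69.0% and 71.7% G and C, against 48.7% for this Etv1 window.

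In naive animals 4 of the 5 genes were far higher in HA than in IgG, and Etv1 was not. Since the genes were chosen for this, the values describe the choice and no test is attached. The receptor Kit stood at 909.5, 976 and 1027 CPM in the HA libraries of animals 1, 2 and 4, and at 69.5, 96.0 and 65.1 CPM in the IgG libraries of the same animals. The channel Ano1 stood at 1940, 1613 and 2320 CPM in HA and at 191, 130.3 and 236 CPM in IgG. In both genes the lowest HA library was several times above the highest IgG library. Gpr20 stood at 1579.9, 1396 and 1479 CPM in HA and at 152, 122 and 117 CPM in IgG, while Adgrd1 stood at 1026, 1438 and 1434 CPM in HA and at 67.0, 97.7 and 73.7 CPM in IgG. Fitted fold differences of HA over IgG were 12.5 for Kit, 10.2 for Ano1, 11.3 for Gpr20 and 16.0 for Adgrd1, and only 1.36% or fewer of the 9823 genes tested had a larger one than any of these. Over all genes tested, 16% were called higher in HA at an adjusted p under 0.05; this contrast is the one the choice was made on, so nothing is read from the members' place in it.

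Etv1 went against the label of an HA-enriched ICC gene. It was low throughout, with 66, 27 and 53 counts in the HA T0 libraries (25.3, 15.1 and 18.5 CPM) and 10, 4 and 18 counts in the IgG T0 libraries (25.8, 6.86 and 14.0 CPM). The 2 antibodies overlapped, the fitted HA over IgG fold was 1.33, and 29.2% of genes tested had a larger one. At T3 Etv1 had 16, 24 and 16 counts in HA and 3, 0 and 3 counts in IgG, where 3 counts, the limit that a count of 0 allows, amount to 12.1 to 34.0 CPM, so that its IgG level at T3 could not be resolved at this depth.

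**Figure D1:**
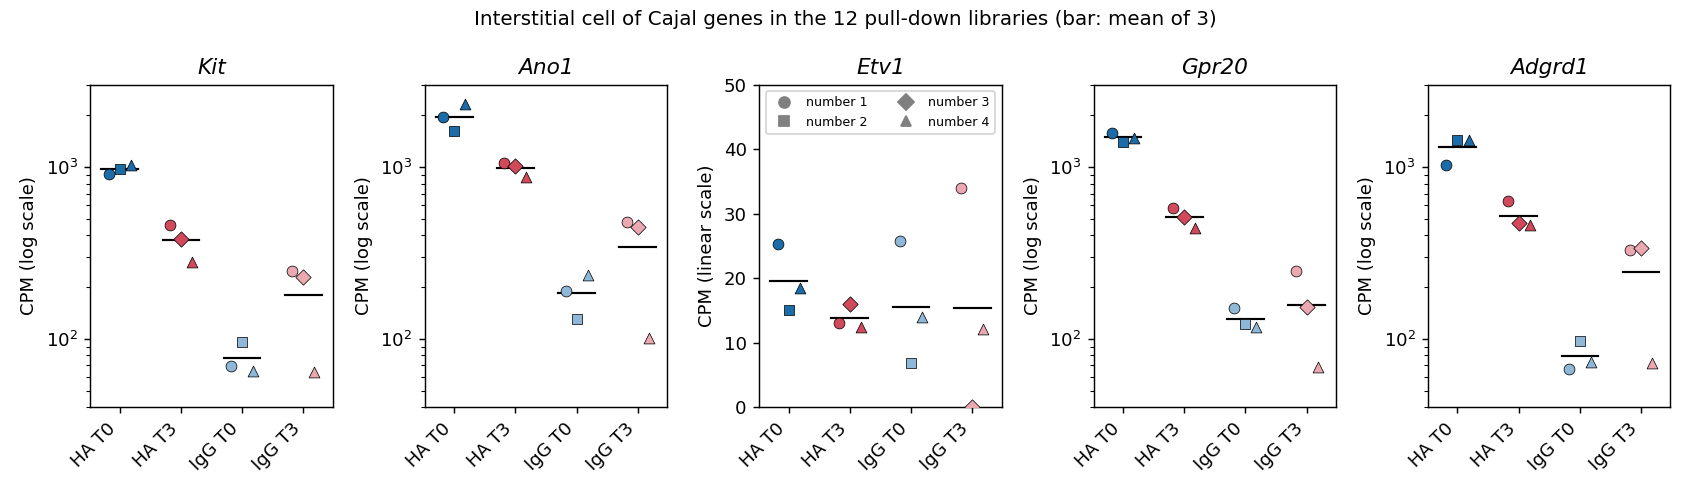
CPM of each gene in the 12 libraries, by antibody and time, with bars at the mean of 3 libraries; marker shapes give the animal number, and T0 and T3 animals are different animals. The y axis is logarithmic except for Etv1. Kit, Ano1, Gpr20 and Adgrd1 are lower in every HA T3 library than in every HA T0 library, and Etv1 stays at or below 34.0 CPM in each library.

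After manipulation, Kit, Ano1, Gpr20 and Adgrd1 fell in the HA pull-down, and Etv1 did not pass the test. This comparison asks how the tagged ribosomes' RNA changed within 3 h of handling. It uses the HA libraries in which the genes were known to be high, so it is not independent of their choice. In bulk samples, fewer cells of a type and less RNA per cell cannot be told apart, and in a pull-down the same holds for less tagged RNA recovered. With edgeR's quasi-likelihood test (Benjamini-Hochberg adjustment over 9441 genes), 4 of the 5 genes were called, all of them lower, while 15.1% of all genes tested were called lower and 18.7% higher; the median log2 change was -1.05 over the 5 genes and -0.02 over all genes. The ICC genes' share of the HA library moved from 0.544 to 0.628% at T0 to 0.207 to 0.274% at T3.

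Kit was at 462, 379 and 281 CPM in the HA T3 libraries of animals 1, 3 and 4, so the mean moved from 971 ± 59.0 to 374 ± 90.4 CPM (SD, n = 3). All HA T3 libraries lay below all HA T0 libraries, and this separation was seen in 35.2% of all genes tested. The fitted log2 change was -1.11 ± 0.18 (SE; adjusted p = 9.08e-05 by edgeR), which is a 2.16-fold fall. This is less than the ratio of the CPM means, because the fit rescales libraries by trimmed means and the typical gene had lower CPM at T3.

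Ano1 was at 1058, 1014 and 877 CPM in HA T3, with means of 1958 ± 354 and 983 ± 94.7 CPM at T0 and T3 (SD, n = 3). The groups did not overlap. It fell 1.65-fold (log2 change -0.73 ± 0.17, SE; edgeR adjusted p = 0.00301), the smallest change of the 4 called genes. When all 12 libraries shared the estimate of spread, the call was lost at a log2 change of -0.72 (edgeR adjusted p = 0.121; 5.23e-05 to 0.121 over 13 alternatives).

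Gpr20 had the largest fall of the 5. Its HA T3 libraries held 576, 509 and 441 CPM, and its mean moved from 1485 ± 91.9 to 509 ± 67.4 CPM (SD, n = 3). It fell 2.44-fold (log2 change -1.28 ± 0.17, SE; edgeR adjusted p = 7.44e-06), and 4.42% of genes tested had a lower change. Adgrd1 held 631, 470.1 and 460.1 CPM in HA T3, with means of 1299 ± 237 and 520.4 ± 95.9 CPM (SD, n = 3). It fell 2.08-fold (log2 change -1.05 ± 0.18, SE; edgeR adjusted p = 0.000165). Kit, Gpr20 and Adgrd1 kept this call in 13 of 13 alternatives. The animals of HA T3 stood in 1 order for all 4 genes, with animal 1 highest and animal 4 lowest.

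Etv1 was at 13.1, 16.0 and 12.5 CPM in HA T3, and the library of animal 3 lay above 1 of the HA T0 libraries. Its log2 change was -0.24 ± 0.31 (SE; edgeR adjusted p = 0.566), which leaves a fall of the size seen in Ano1 within 2 SE.

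Library depth and glial content moved with these falls. HA T3 libraries had fewer counts than every HA T0 library, and the summed CPM of the 15 glial markers was 10930 to 11411 in HA T3 against 5067 to 6385 in HA T0; their part in the result was not tested. Of 14 glial genes tested, 4 rose and 1 fell in HA, where 18.7% of all genes tested were called higher and 15.1% lower. Gfap, an intermediate filament of reactive glia, rose by 4.12 on the log2 scale (edgeR adjusted p = 3.63e-12), and Cryab, Sox2 and S100b also rose. Gpr37l1, a glial receptor, fell by 0.87 (edgeR adjusted p = 0.00174). Sox10, the glial lineage factor, had a log2 change of -0.26 ± 0.26 (SE; edgeR adjusted p = 0.462).

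Within a library the ratio of 2 genes does not depend on its scaling. Kit counts were 1.43 to 2.10 times those of S100b in HA T0 and 0.398 to 0.532 times in HA T3. S100b itself rose in HA at T3 (log2 change 0.70, edgeR adjusted p = 0.0061), so a gene without change would also fall against it. Against S100b the ratios of all 5 genes, Etv1 included, were lower in every HA T3 library than in every HA T0 library. The share of all genes with such a separation against S100b was not counted. In CPM alone, 35.2% of all genes tested lay lower in HA T3 without overlap. Each of these 5 ratios to S100b gave p = 0.1 in a two-sided exact permutation test, the smallest that 3 against 3 libraries allow. After adjustment over the 10 ratios to glial genes, each was at 0.2. Against Sox10 the ratio overlapped between times for each gene: that of Kit was 1.69 to 2.67 at T0 and 0.679 to 2.33 at T3 (exact permutation p = 0.3, adjusted 0.375). The choice of the glial gene thus decided whether the groups overlapped.

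Ratios among the ICC genes themselves were also compared. Gpr20 counts were 0.638 to 0.866 of Ano1 counts in HA T0 and 0.502 to 0.545 in HA T3. This was a shift of the Ano1 to Gpr20 ratio by 0.57 ± 0.14 on the log2 scale (SE, n = 3) with no overlap (exact permutation p = 0.1, adjusted 0.25 over 10 pairs of genes). The Kit to Ano1 ratio moved by -0.42 ± 0.19 (SE), again without overlap and with the same p. The Kit to Adgrd1 ratio overlapped, at 0.678 to 0.887 in HA T0 and 0.611 to 0.807 in HA T3, a log2 difference of -0.09 ± 0.17 (SE; exact permutation p = 0.7). Of the 10 pairs, 4 did not overlap between times, and none could pass the threshold with 3 libraries a group.

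**Figure D2:**
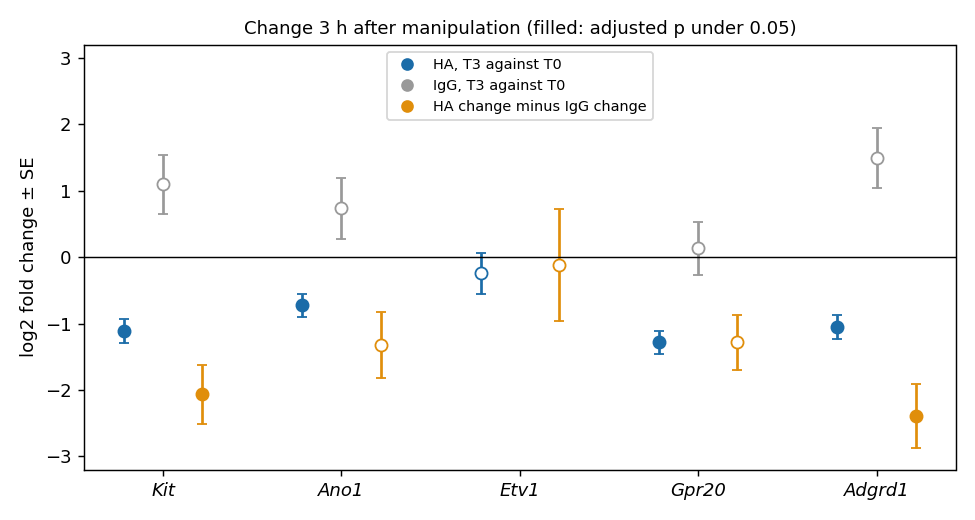
Fitted log2 fold changes with SE for each gene in HA (T3 against T0), in IgG (T3 against T0) and for the difference of the 2, with filled points at an edgeR adjusted p under 0.05. The HA changes of Kit, Ano1, Gpr20 and Adgrd1 lie between -1.28 and -0.73, their IgG changes lie at or above 0.13 with none called, and Etv1 was not tested in IgG.

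In IgG, which measures what sticks without the tag, no ICC gene was called changed at T3. The test covered 4 of the 5 genes, since Etv1 had too few counts, and 0 of 4 passed in edgeR where 5.46% of 5219 genes did. By DESeq2 0 of 4 passed too, and in edgeR Kit and Adgrd1 were under 0.05 before adjustment. Kit was at 249.6, 228 and 64.4 CPM in the IgG T3 libraries of animals 1, 3 and 4, from 22, 21 and 16 counts. Adgrd1 was at 329, 337 and 72.4 CPM, from 29, 31 and 18 counts. In both genes animals 1 and 3 lay above every IgG T0 library, and animal 4 lay inside or just below the IgG T0 range. The share of all genes with this pattern was not counted.

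Ano1 was at 477, 446 and 100.6 CPM in IgG T3 and Gpr20 at 249.6, 152 and 68.4 CPM. Animal 4 was the lowest of all IgG libraries for both. The IgG log2 changes were 1.09 ± 0.44 for Kit, 0.73 ± 0.47 for Ano1, 0.13 ± 0.40 for Gpr20 and 1.49 ± 0.46 for Adgrd1 (SE; edgeR adjusted p = 0.168, 0.394, 0.887 and 0.0794). Without the IgG T3 libraries of animals 1 and 3, the values were -0.16, -0.82, -0.83 and -0.05. This setting leaves 1 IgG T3 library, that of animal 4, and takes the spread from the other group, so these are given as values only. Without that of animal 4, Kit at 1.53 and Adgrd1 at 1.96 were called (edgeR adjusted p = 0.0408 and 0.00675).

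The change in HA differed from the change in IgG for Kit and Adgrd1. The difference of the 2 log2 changes was -2.06 ± 0.44 for Kit (SE; edgeR adjusted p = 0.0359) and -2.40 ± 0.48 for Adgrd1 (SE; edgeR adjusted p = 0.0261), so 2 of 5 genes were called lower, against 0.0291% of 10314 genes (0.33% in either direction). These are 2 of 3 genes called lower; the third was Crispld2, a secreted protein gene, named after its value was seen (log2 difference -1.56, edgeR adjusted p = 0.0488). Gpr20 at -1.28 ± 0.41, Ano1 at -1.33 ± 0.50 and Etv1 at -0.12 ± 0.85 were not called (SE; edgeR adjusted p = 0.236, 0.340 and 0.979). The median difference over all genes was 0.18. Negative differences were also seen in other genes: Edn3 and Prkcq, which were also high in HA, stood at -1.90 and -1.65 (edgeR adjusted p = 0.199 and 0.243), and 11 of 14 glial genes were below 0 with a median of -0.92, where 1 gene was called, Cryab, which was higher. The difference is built from the HA and IgG groups on which the genes were chosen, and is not independent of that choice. Nothing is therefore read from the share of the 5 genes called against that of all genes. Its size moved with the IgG T3 libraries: without animals 1 and 3 of that group, Kit was at -0.95, Adgrd1 at -1.005 and Ano1 at 0.09, given as values only, since 1 IgG T3 library remains and the other groups give the spread. Of the single libraries left out in turn, 7 ended the call for both genes at once (animals 2 and 4 of HA T0, 3 and 4 of HA T3, 4 of IgG T0, and 1 and 3 of IgG T3), and animal 1 of IgG T0 ended that for Kit alone, with edgeR adjusted p up to 0.148. Scaling by total counts ended the call for Adgrd1 alone. The main fit took the HA and IgG libraries of an animal as independent. With the animal as a block for its HA and IgG libraries, Kit was at -2.06 and Adgrd1 at -2.33 (edgeR adjusted p = 0.000184 and 4.66e-05), and 158 genes in all were called.

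HA over IgG at T3 was smaller than at T0 in the fit of each time: 2.48-fold for Kit, 3.33-fold for Ano1, 3.84-fold for Gpr20 and 2.50-fold for Adgrd1, given as a description. The IgG T3 group sets this size in part. Without its animals 1 and 3, the log2 differences were 2.66, 3.42, 3.02 and 2.97, against 1.31, 1.73, 1.94 and 1.32 with them. In the order of group means, Kit, Ano1, Gpr20 and Adgrd1 were each highest in HA T0, then HA T3, IgG T3 and IgG T0; the 2 IgG groups overlapped in each gene, and the HA groups did not overlap each other or the IgG groups.

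**Figure D3:**
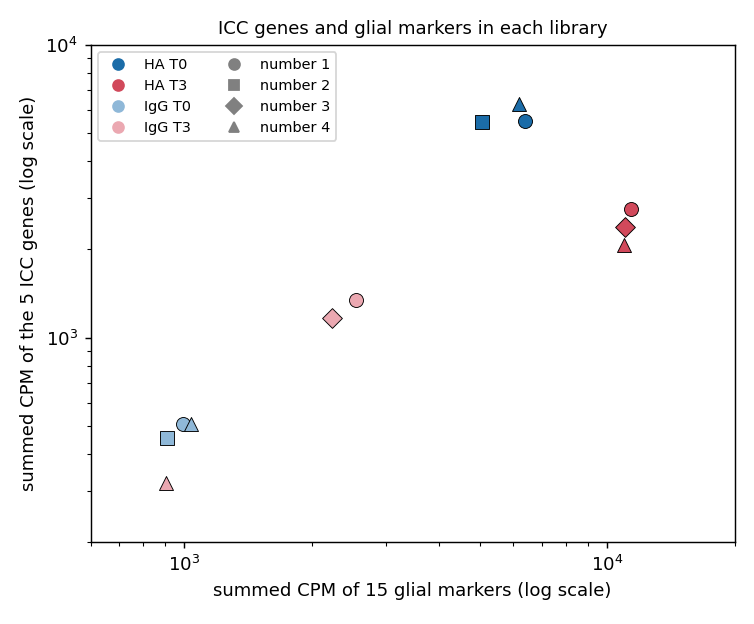
Summed CPM of the 5 ICC genes against summed CPM of 15 glial markers in each of the 12 libraries, both axes logarithmic, with colour for the group and shape for the animal number. HA T3 libraries lie to the right of and below HA T0 libraries, and 2 IgG T3 libraries (animals 1 and 3) lie above and to the right of the other 4 IgG libraries.

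Other genes linked to ICC were split. A list of 17 held 15 with a row in the table and 14 that were tested in HA. Of these, 2 rose, 4 fell and 8 did not pass, where 18.7% of all genes tested were called higher and 15.1% lower. The median log2 change was -0.21 against -0.02 over all genes. Edn3, the endothelin-3 ligand, was closest to the 5 genes: it held 430.0, 514 and 726 CPM in HA T0, 299.6, 237 and 262 CPM in HA T3, and 23.2, 32.6 and 34.1 CPM in IgG T0. It did not overlap between any 2 of these groups, and it fell by 0.79 on the log2 scale in HA (SE 0.19; edgeR adjusted p = 0.00275; 0.0602 in 1 of 13 alternatives). Thbs4, a thrombospondin, fell by 0.72 (edgeR adjusted p = 0.0189), but lost the call in 4 of 13 alternatives (up to 0.146). Gucy1b3, a subunit of the nitric oxide receptor, and Cav1, the caveolar coat protein, fell by 0.97 and 0.99 (edgeR adjusted p = 0.00484 and 0.000642). Gucy1b3 was lower in HA than in IgG at T0, by a log2 difference of -1.67, and Cav1 had a difference of 0.04. Cd44, an adhesion receptor, rose by 1.54 (edgeR adjusted p = 2.94e-06), and Pde3a, a cyclic nucleotide phosphodiesterase, by 1.25 (edgeR adjusted p = 0.0225; lost in 6 of 12 alternatives).

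Prkcq, protein kinase C theta and a marker of ICC, did not follow Kit. It held 454, 407 and 699.9 CPM in HA T0 and 572, 357 and 349.6 CPM in HA T3, which overlap, and its log2 change was -0.02 ± 0.22 (SE; edgeR adjusted p = 0.956). In HA over IgG at T0 it stood with Edn3, at log2 differences of 3.55 and 4.13 (edgeR adjusted p = 2.52e-07 and 8.88e-08). Of the 14 genes tested at T0, 6 were higher in HA and 5 were lower, among them Gucy1a3 at -3.36 and Tacr1, the substance P receptor, at -1.24 (edgeR adjusted p = 6.14e-05 and 0.0156; for Tacr1 lost in 3 of 13 alternatives). Among all genes tested at T0, 16% were called higher in HA and 14.4% lower. Only Edn3 and Prkcq of the ICC-linked list had a log2 difference in the range of Kit, Ano1, Gpr20 and Adgrd1 (3.35 to 4.00) or above it.

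Genes that act around the receptor were followed as a list. Kitl, which encodes the KIT ligand, was lower in HA than in IgG, at 20.3, 16.8 and 7.66 CPM in HA T0 and 108, 99.4 and 71.3 CPM in IgG T0 (log2 difference -2.64, edgeR adjusted p = 0.000112). Its HA log2 change at T3 was 0.22 ± 0.45 (SE; edgeR adjusted p = 0.733). Of 10 genes of KIT signalling tested in HA, 3 passed the test, all of them higher: the adaptors Grb2 and Gab2, by 1.88 and 1.64 on the log2 scale, and the transcription factor Stat5a, by 1.36 (edgeR adjusted p = 8.56e-08, 6.27e-05 and 0.000775). Over all genes tested, 18.7% were called higher and 15.1% lower. The other 7 did not pass, among them the adaptors Shc1 at -0.42 and Gab1 at -0.32 (edgeR adjusted p = 0.270 and 0.259), and the median of the 10 was 0.23. Many cell types use these genes, and the pull-down cannot assign them to ICC.

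Among 9 targets or feedback inhibitors of ERK, the kinase below KIT, 7 were tested in HA. The 3 that passed rose, where 18.7% of all genes tested were called higher, and the median log2 change was 0.59. Spry2, a feedback inhibitor, went from 5.76, 7.26 and 4.53 CPM in HA T0 to 55.7, 30.1 and 35.8 CPM in HA T3, a rise of 3.06 on the log2 scale (SE 0.32; edgeR adjusted p = 2.94e-07). Dusp6, an ERK phosphatase, rose by 0.94 (edgeR adjusted p = 0.0103; lost in 2 of 13 alternatives, up to 0.0699), and Spry4, in edgeR, by 0.59 (adjusted p = 0.0416; lost in 8 of 13). The ETV1 relatives Etv4 and Etv5 had log2 changes of 0.79 ± 0.79 and 0.02 ± 0.26 (SE; edgeR adjusted p = 0.483 and 0.959).

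Relatives of the 5 genes went their own ways. In HA at T3 against T0, Pdgfra, the receptor of the other interstitial cell class, fell by 2.36 on the log2 scale and Csf1r, the macrophage growth factor receptor, by 1.17 (edgeR adjusted p = 0.0045 and 0.00666), and Pdgfrb did not pass at -0.25 (edgeR adjusted p = 0.395). Pdgfra was at 26.1, 33.0 and 19.5 CPM in HA T0 and 74.7, 65.1 and 58.9 CPM in IgG T0, so unlike Kit it was lower in HA. Its HA T3 libraries held only 1 to 14 counts, so the size of its fall is imprecise (log2 change -4.10 to -1.89 over 13 alternatives). Of the anoctamins, Ano6, a lipid scramblase, rose by 0.49 (edgeR adjusted p = 0.0457; lost in 7 of 13 alternatives), while Ano8 at 0.54 and Ano10 at -0.08 did not pass (edgeR adjusted p = 0.0775 and 0.756). Mast cells also carry KIT. Of 10 mast cell genes 1 had a row in the table, Hdc, the histidine decarboxylase, with 0 to 1 counts in the HA T0 libraries, 30, 2 and 4 in HA T3, 0 to 1 in IgG T0, and 8, 5 and 1 in IgG T3.

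Markers of other cell types in the muscle layer were compared in the same HA libraries. Among the genes tested, 5 of 5 mesothelial genes (median log2 change -3.02), 4 of 7 fibroblast genes (-1.10), 3 of 7 macrophage genes (-1.005) and 4 of 12 smooth muscle genes (-0.23) were called, all of them lower, against 15.1% of all genes; the other 8 smooth muscle, 4 macrophage and 3 fibroblast genes did not pass. Of 2 endothelial genes tested neither passed (median -0.08). The summed CPM of the fibroblast genes was 1049 to 1388 in HA T0 and 321 to 550 in HA T3, and that of the smooth muscle genes 17341 to 26314 and 13943 to 16041, without overlap in either list. At T0 these lists lay lower in HA than in IgG, where Kit, Ano1, Gpr20 and Adgrd1 lay higher: 12 of 12 smooth muscle and 6 of 7 fibroblast genes were called lower in HA (14.4% of all genes tested). Neuronal genes moved the other way with time, with 6 of 12 called, all of them higher, against 18.7% of all genes. Whether these shifts had a part in the ICC values was not tested.

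**Figure D4:**
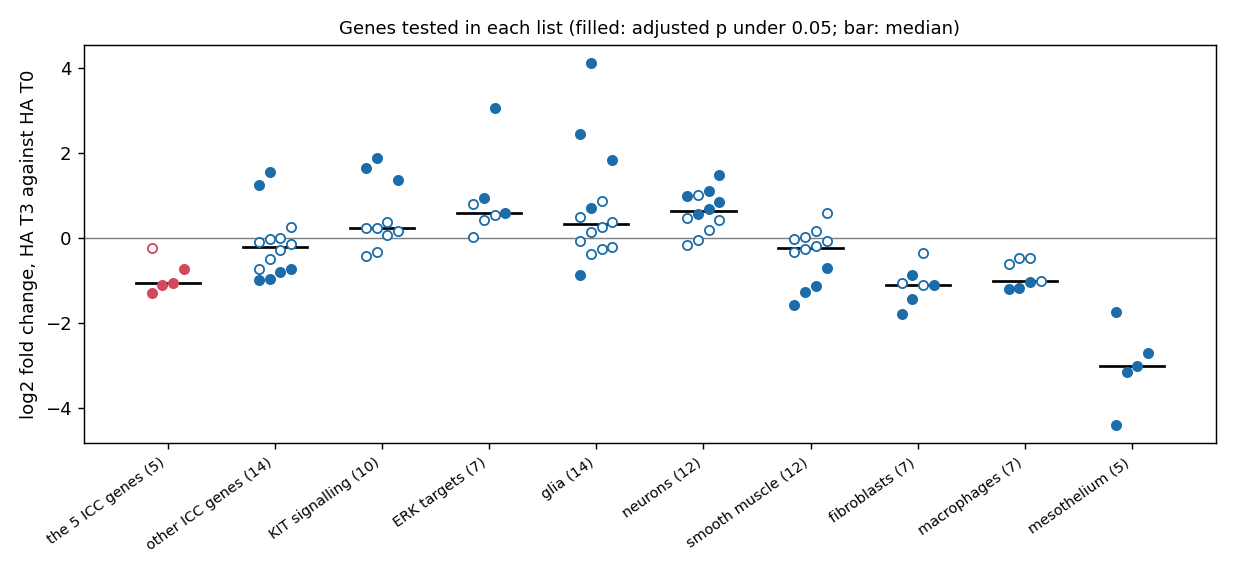
Log2 fold change in HA (T3 against T0) of each gene tested, by list, with the number tested in brackets, filled points at an edgeR adjusted p under 0.05 and bars at the median. The 5 ICC genes have a median of -1.05, the other 14 ICC-linked genes of -0.21, glial genes of 0.32 and mesothelial genes of -3.02.

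Over the 12 libraries, the genes whose log2 CPM ran closest to the mean of the 5 ICC genes, among 8593 genes at 10 CPM or more on average, were Rgs10, Slco3a1, Ctxn3, Rpn2 and Emc7, with Pearson r of 0.979 to 0.969. Such r mostly follow the split between HA and IgG, which all points share, and depth, so they are a description. For single genes, Kit and Adgrd1 were closest to each other (r = 0.994), each followed by Sez6l and Edn3. Ano1 was closest to Fads1, Edn3 and Rgs10 (r = 0.984 to 0.982), and Gpr20 to Rnf130, Slco3a1 and Rgs10 (r = 0.988 to 0.986). Etv1 was closest to Yipf6, Cxx1c and Tmem245, 3 other genes of low count, and its r with the other ICC genes was 0.188 to 0.419, where theirs with each other was 0.942 to 0.994. Within the 6 HA libraries alone, the other ICC genes ran with each other at r of 0.870 to 0.975. Those libraries hold both times, between which none of these genes overlapped, so this r is also only a description.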

How the data were processed

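Ribosome-bound RNA from anti-HA and IgG1 pull-downs of the small intestinal muscularis was sequenced by bulk MARS-seq, which tags the 3′ ends of transcripts with molecular barcodes (UMIs). Per the labels and the methods, the authors trimmed reads with cutadapt, aligned them to mm10 with STAR 2.4.2a, counted uniquely mapped reads near 3′ ends with HTSeq after UMI collapse, and kept genes with at least 5 reads in 1 sample; their submission also names DESeq2 1.26.0. The deposited values are raw counts per gene (UMIs), and the series table and the per-sample files differed in 0 values. The strand setting of the counting is not given in the sources used here.

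Counts were tested with edgeR 4.0.16 (R 4.3.3): trimmed-mean (TMM) scaling, filterByExpr, the quasi-likelihood F test, and Benjamini-Hochberg adjustment over all genes tested, with a threshold of 0.05. Fits held the groups of each contrast (HA T3 against T0, IgG T3 against T0, HA against IgG at each time) or all 12 libraries (the difference of the HA and IgG changes). The CPM values are not TMM-scaled. The script was tested on simulated data. The 5 genes, the gene lists and the tests were chosen with earlier results of these data known. Named genes were the 5 genes, any gene of the ICC, KIT signalling, ERK, relatives and mast cell lists, up to 4 genes of each other list by p, and the genes closest in profile; Sox10 and S100b served as glial references. Results for 1 glial gene are not reported here.

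The numbers in the labels mark an animal whose lysate was divided between HA and IgG: the deviations of same-number HA and IgG libraries from their group means correlated at 0.123 to 0.309 in all 6 pairs. T0 and T3 animals with 1 number are different animals. Alternatives were RLE or total-count scaling, 2 other filters, DESeq2 1.42.0, all libraries in 1 fit, the replicate block and each library left out; leaving out IgG T3 animals 1 and 3 together was added after seeing the data. P-values within 1 antibody measure the spread between 3 animals a group. The main fits of HA against IgG, and of the difference of the HA and IgG changes, treated the HA and IgG libraries of an animal as independent. Their p-values ignore this pairing, and the replicate block is among the alternatives. Limits at 3 counts cover counting error only. Total counts ranged from 88136 to 2870591, a 32.6-fold range, so IgG T3 values are the least precise.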

Additional observations from a re-analysis of the deposited data

Results flagged for a closer look

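The change from T0 to T3 differed between the HA and the IgG pull-down for Kit (log2 difference -2.06, edgeR adjusted p = 0.0359; 4.17-fold) and for Adgrd1 (log2 difference -2.40, edgeR adjusted p = 0.0261; 5.26-fold), by a test of the difference itself. This difference contains the HA and IgG contrast on which the genes were chosen, and is not independent of that choice. For both, all 3 HA T3 libraries lay below all 3 HA T0 libraries, a separation seen in 35.2% of all genes tested in HA. In IgG, 2 of 3 T3 libraries lay above all 3 T0 libraries. The share of all genes with that IgG pattern was not counted. The main fit took the HA and IgG libraries of an animal as independent. The negative sign was kept in 19 of 19 alternatives for both genes. With 1 library left out the call was lost in 8 settings for Kit (edgeR adjusted p up to 0.148) and in 7 for Adgrd1 (up to 0.112). Scaling by total counts also ended the call for Adgrd1, though not for Kit. Without IgG T3 animals 1 and 3 the values were -0.95 and -1.005; this leaves 1 library in that group, with the spread taken from the others. The glial marker sum moved with this, at 2542 and 2239 CPM in the IgG T3 libraries of animals 1 and 3 against 905 CPM in that of animal 4, and its part in the result was not tested.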

How the results depend on the processing

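In HA (T3 against T0), all 5 genes kept a negative sign in 13 of 13 alternatives. For Etv1, which was not called, the log2 change ranged from -0.50 to -0.0001, so its sign carries little. Kit, Gpr20 and Adgrd1 kept the call in each, and Ano1 lost it with all 12 libraries in 1 fit. Total-count scaling moved the median of all genes from -0.02 to -0.28 and the split of calls from 1765 higher and 1422 lower to 1208 and 2641; relative to that shift the falls of the 4 genes stood. In IgG (T3 against T0), 285 genes were called; without a filter there were 519, with all 12 libraries 705, and with a library left out 162 to 334. ICC genes called there went from 0 to 1 without a filter, 1 with all 12 libraries (Adgrd1 in both) and 0 to 2 with a library left out. Gpr20 ranged from -0.38 to 0.52 in IgG with a library left out, and turned sign without a filter (-0.0037), with the replicate block (-0.072), without IgG T3 animal 1 (-0.38) and without IgG T3 animals 1 and 3 (-0.83), which leaves 1 IgG T3 library, assumed to vary like the other groups, and which also turned Kit (-0.16), Ano1 (-0.82) and Adgrd1 (-0.051).

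For the difference of the HA and IgG changes, 34 genes were called: 20 with RLE scaling, 8 with total counts, 80 with DESeq2, 158 with the replicate block, 5 to 95 with a library left out and 6 without IgG T3 animals 1 and 3. Of the ICC genes 2 were called: 1 with total counts, 0 to 4 with a library left out and 0 without IgG T3 animals 1 and 3, where Ano1 turned to 0.094. Etv1 ranged from -0.57 to 0.53 with a library left out, and was positive (0.08, 0.14 and 0.53) without HA T0 animal 1, IgG T0 animal 2 and IgG T3 animal 1. Total-count scaling moved the median of all genes there from 0.18 to -0.18. For HA against IgG at T3, 1578 genes were called and 849 to 1977 with a library left out. The causes of these shifts were not tested. T0 and T3 libraries that share a number come from different animals. Their deviations correlated at 0.165 (HA) and 0.187 (IgG) for number 1, and at 0.00706 and 0.0195 for number 4. For number 1 this is as large as in the HA and IgG pairs of an animal at T3 (0.183, 0.174 and 0.123), and its source was not tested. As a block the shared number gave 3434 calls in HA against 3187. Etv1 in IgG T3 (0 to 3 counts) lies at the limit of depth.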
